A study of Homo sapiens with 11 samples.

Results

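The anti-apoptotic genes of the BCL2 family, BCL2L1, BCL2, MCL1, BCL2L2, BCL2A1 and BCL2L10, were examined in lists of Ikaros binding peaks from cell lines of B-cell acute lymphoblastic leukemia (B-ALL). A peak was chosen by 3 criteria, of which 1 sufficed: the gene name it carried in its list, an overlap with the gene's body, or a part within 1000 bp of a transcription start site (TSS) of the gene. This gave 79 of the 300249 peaks in all lists, for 6 of 19995 protein-coding genes. The peaks came from chromatin immunoprecipitation and sequencing (ChIP-seq) with antibodies to Ikaros, the zinc finger DNA-binding protein that IKZF1 encodes. JM1 and Nalm6 cells had been treated with 20 µM CX-4945, which inhibits protein kinase CK2, for 1 day, and JM1, REH and 697 cells were untreated. All are established lines of leukemic B-cell precursors. JM1 and REH were precipitated with a Bethyl antibody, Nalm6 and 697 with an affinity-purified one, so line and antibody cannot be told apart between these pairs. Untreated Nalm6 cells were not analysed here, and JM1 alone was compared in both states.

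Each condition had 1 list, and every value below describes that list with no replicate check and no p-value. The lists held 88692 peaks in treated JM1, 70894 in treated Nalm6, 37448 in untreated JM1, 83563 in untreated REH and 19652 in untreated 697. Each peak has a whole-number score given by the authors, which was used only to rank peaks within a list. The score percentile is the share of peaks of the same list with a lower score, counting ties by their middle rank. Lists of different length give percentiles on different footings, so a gap in percentile between lists is not a change in binding. Of the peaks chosen, 21 were in treated JM1, 12 in treated Nalm6, 13 in untreated JM1, 25 in untreated REH and 8 in untreated 697. The Nalm6 list lacked 2479 of its own peak numbers and had 0 peaks without a gene name, where the other lists had 511 to 3103. Peaks are not a level of expression, so the label of the cells could not be checked from them. Of the B-cell precursor markers, CD79A, CD79B, PAX5, EBF1 and IGLL1 had a promoter peak in both JM1 lists, treated Nalm6 and untreated REH, and VPREB1 in the same lists but REH. In untreated 697 PAX5 and EBF1 had one, and CD79A, CD79B, VPREB1 and IGLL1 had none. Of 3 T cell markers, CD3D had one in treated JM1 and none of CD3E, CD3D and CD2 had one in the other lists. Of 3 myeloid markers, 3 had one in treated JM1, treated Nalm6 and untreated REH, 1 in untreated JM1 and 0 in untreated 697.

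Proteins of the BCL2 family decide whether the outer membrane of the mitochondrion is opened in apoptosis. The anti-apoptotic members hold the effectors BAX and BAK1 and the BH3-only proteins in check by binding their BH3 helix in a groove on their surface, and drugs that fill this groove are used in leukemia. Ikaros both represses and activates genes in lymphoid cells, and its DNA binding is known to be reduced when CK2 phosphorylates it. Its zinc fingers recognise a core of GGGAA, read TTCCC on the other strand.

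The promoters of BCL2L1, BCL2 and BCL2A1 are shown first, because they mark where the peaks do and do not lie. These were the 3 of 6 genes with an entry in the RefSeq promoter table (GRCh38.p14), from 250 bases before to 50 bases after a start. BCL2L1 has an entry for each of a pair of starts. All are printed 5′ to 3′ on the minus strand, which is the strand of these genes, with GGGAA or TTCCC in capitals.
BCL2L1 upstream start, chr20:31723914-31724213: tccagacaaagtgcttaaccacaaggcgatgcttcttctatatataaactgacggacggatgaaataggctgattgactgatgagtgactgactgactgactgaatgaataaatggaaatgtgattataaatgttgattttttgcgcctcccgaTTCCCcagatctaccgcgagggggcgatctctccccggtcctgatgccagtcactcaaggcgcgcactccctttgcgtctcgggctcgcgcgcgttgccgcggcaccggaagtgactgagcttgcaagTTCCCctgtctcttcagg
BCL2L1 downstream start, chr20:31722819-31723118: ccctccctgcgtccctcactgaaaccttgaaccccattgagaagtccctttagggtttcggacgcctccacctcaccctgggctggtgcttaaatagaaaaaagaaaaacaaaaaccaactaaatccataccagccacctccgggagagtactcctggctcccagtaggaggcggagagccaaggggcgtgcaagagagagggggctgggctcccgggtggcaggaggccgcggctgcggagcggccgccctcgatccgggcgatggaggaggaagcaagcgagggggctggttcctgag
BCL2, chr18:63319720-63320019: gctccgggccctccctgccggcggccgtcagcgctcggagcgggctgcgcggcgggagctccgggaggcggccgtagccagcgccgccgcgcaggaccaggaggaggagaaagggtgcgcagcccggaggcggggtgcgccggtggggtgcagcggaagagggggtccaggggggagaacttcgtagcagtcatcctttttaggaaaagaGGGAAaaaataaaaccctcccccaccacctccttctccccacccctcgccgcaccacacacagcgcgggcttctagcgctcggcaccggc
BCL2A1, chr15:79971147-79971446: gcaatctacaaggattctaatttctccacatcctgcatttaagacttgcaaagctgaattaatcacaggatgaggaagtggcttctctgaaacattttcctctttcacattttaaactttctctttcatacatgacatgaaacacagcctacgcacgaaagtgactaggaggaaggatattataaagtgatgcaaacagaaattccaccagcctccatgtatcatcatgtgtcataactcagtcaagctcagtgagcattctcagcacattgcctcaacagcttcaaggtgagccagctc
The upstream BCL2L1 window held 2 TTCCC and the BCL2 window 1 GGGAA, and the downstream BCL2L1 window and the BCL2A1 window held 0. GC content was 52.0% in the upstream and 61.3% in the downstream BCL2L1 window, 70.7% at BCL2 and 41.0% at BCL2A1. Of all 35116 RefSeq promoter windows, 65.0% held GGGAA on either strand, so a window with a match is common. CCGGAA, which shares its last 4 bases with the Ikaros core and is the core of sites for ETS factors, was found once in the upstream BCL2L1 window and in none of the other 3, against 17.2% of all windows.

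A peak near a TSS was found at 5 of the 6 genes in all 5 lists. BCL2L1, BCL2, MCL1, BCL2L2 and BCL2L10 had one in each list and BCL2A1 had none in any. Of all protein-coding genes, 81.3% had such a peak in treated JM1, 74.4% in treated Nalm6, 58.8% in untreated JM1, 81.8% in untreated REH and 49.5% in untreated 697. A peak in every list was found at 41.8% of them and a peak in no list at 14.6%. Counting the TSS of the canonical transcript alone, the reference transcript chosen by Ensembl, left 5 genes in each list but untreated 697, where BCL2L2 dropped out and 4 were left. Of all protein-coding genes, 78.1% had a peak within 1000 bp of this TSS in treated JM1, 70.0% in treated Nalm6, 53.2% in untreated JM1, 78.9% in untreated REH and 45.1% in untreated 697.

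The score percentile of the highest promoter peak differed in order from list to list. MCL1 ranked highest of the 6 genes in treated JM1 (99.0), BCL2L10 in treated Nalm6 (99.1), BCL2 in untreated REH (99.7) and BCL2L10 in untreated 697 (97.9). BCL2 and MCL1 shared the highest place in untreated JM1 (86.0). BCL2 was at or above the 86.0th percentile in every list and MCL1 at or above the 77.1st, whereas BCL2L1, BCL2L2 and BCL2L10 each ranged over more than 50 percentile points between lists. The median over the 5 genes was 97.2 in treated JM1, 90.2 in treated Nalm6, 65.0 in untreated JM1, 95.7 in untreated REH and 77.1 in untreated 697. Over all genes with a promoter peak it was 90.2 in treated JM1, 86.2 in treated Nalm6, 75.7 in untreated JM1, 89.4 in untreated REH and 68.2 in untreated 697. At or above the 90th percentile were BCL2L1, MCL1 and BCL2L2 in treated JM1, BCL2, MCL1 and BCL2L10 in treated Nalm6, none in untreated JM1, BCL2, MCL1 and BCL2L2 in untreated REH, and BCL2 and BCL2L10 in untreated 697. Of all protein-coding genes 40.7% were so ranked in treated JM1, 29.6% in treated Nalm6, 15.0% in untreated JM1, 39.2% in untreated REH and 8.96% in untreated 697. The BCL2L2 peak ranked here stood over starts of the neighbouring gene PPP1R3E, where a longer BCL2L2 transcript also begins. The peak over the canonical BCL2L2 TSS was at 96.4 in treated JM1 and 77.8 in untreated REH. No replicate gives a spread for these percentiles, so neighbours in each order cannot be said to differ.

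**Figure D1:**
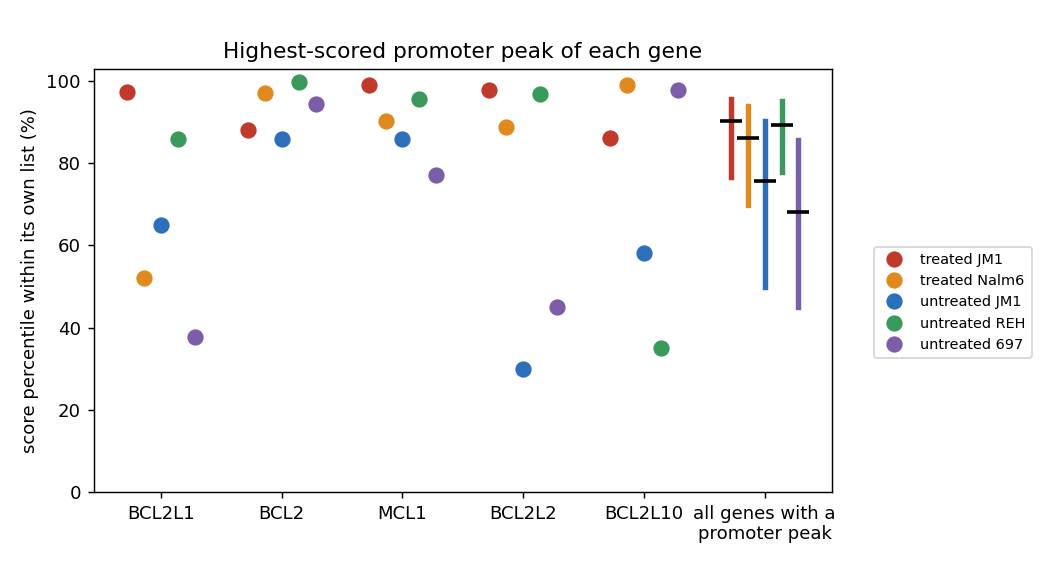
Score percentile within its own list (vertical axis, %) of the highest-scored promoter peak of each gene, 1 point per list; BCL2A1 had no such peak. Bars at the right span the lower to the upper quartile over all genes with a promoter peak in the list, with the median as a black dash. BCL2 lies at or above 86.0 in all 5 lists, and BCL2L1 runs from 37.7 in untreated 697 to 97.2 in treated JM1.

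BCL2L1 encodes Bcl-xL, the protein named in the series title, on the minus strand of chromosome 20 (31664452 to 31723989). Its canonical TSS is at 31722868 and 11 distinct TSSs are annotated in GENCODE. The promoter peak was 2548 bp wide in treated JM1, 1438 bp in treated Nalm6, 1658 bp in untreated JM1, 2513 bp in untreated REH and 1036 bp in untreated 697. It reached 1259 bp upstream of the canonical TSS in treated JM1, 1130 bp in treated Nalm6, 653 bp in untreated JM1, 1257 bp in untreated REH and 960 bp in untreated 697. Downstream it reached 1288 bp in treated JM1, 307 bp in treated Nalm6, 1004 bp in untreated JM1, 1255 bp in untreated REH and 75 bp in untreated 697. The JM1 and REH peaks thus ran over exon 1 and into or past the coding exon 2, and the Nalm6 and 697 peaks ended in or just past exon 1. The peak covered 10 of the 11 TSSs in treated JM1, 9 in treated Nalm6, 5 in untreated JM1, 10 in untreated REH and 3 in untreated 697. All 300 bases of the downstream RefSeq window printed above lay in the peak of every list. Of the upstream window, 214 bases lay in the peak in treated JM1, 85 in treated Nalm6, 0 in untreated JM1, 212 in untreated REH and 0 in untreated 697. The antisense noncoding gene ABALON (31721507 to 31723409) overlaps this promoter, and ChIP peaks have no strand that could divide them.

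The score of this peak stood high among promoters in 1 list and low in another. Set against the highest promoter peaks of all genes in the same list, that of BCL2L1 lay at the 83.2nd percentile in treated JM1, the 12.9th in treated Nalm6, the 38.8th in untreated JM1, the 39.7th in untreated REH and the 18.9th in untreated 697. When each list was limited to its 19652 top-scored peaks, the length of the 697 list, BCL2L1 had a promoter peak in all lists but treated Nalm6. In the lists so limited, 60.5% of all protein-coding genes had one in treated JM1, 54.5% in treated Nalm6 and 45.7% in untreated JM1. The share was 62.3% in untreated REH and 49.5% in untreated 697. The 729 bp common to all 5 promoter peaks (31722793 to 31723521) held Ikaros cores upstream of the canonical TSS, among them those at positions -284, -360 and -408 bp. These are printed with 10 bases on either side, on the strand of the gene, because each was inside the peak of every list. They are not all the cores of this stretch. Capitals mark GGGAA or TTCCC.
BCL2L1 motif 1 at chr20:31723140-31723164: gggggtggccTTCCCaaagtcagat
BCL2L1 motif 2 at chr20:31723216-31723240: tgggcctttgGGGAAttcagagcaa
BCL2L1 motif 3 at chr20:31723264-31723288: tgtccgggcgGGGAAtggaggaccc
The core at -284 bp was also a match to the longer form TGGGAA, read as TTCCCA on this strand. These windows lie between the BCL2L1 RefSeq windows printed above.

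Inside BCL2L1, 8 further sites carried 20 peaks, a site being peaks of the gene that overlap by at least 1 bp over the lists. There were 5 such peaks in treated JM1, 3 in treated Nalm6, 4 in untreated JM1, 7 in untreated REH and 1 in untreated 697. All genes were then searched for a gene body peak away from every TSS of the same gene, although a start of another gene may lie in it. Such a peak was found at 47.5% of all genes in treated JM1, 42.5% in treated Nalm6 and 29.5% in untreated JM1. The share was 45.2% in untreated REH and 16.8% in untreated 697. Longer genes have room for more of them. The 2791 other protein-coding genes of 44.7 to 79.4 kb, near the 59.5 kb of BCL2L1, had a median of 1 in treated JM1, 1 in treated Nalm6, 0 in untreated JM1, 1 in untreated REH and 0 in untreated 697. Their upper quartile was 3 in treated JM1, 2 in treated Nalm6, 1 in untreated JM1, 3 in untreated REH and 0 in untreated 697, in each case below the count at BCL2L1. In BCL2L1, BCL2 and MCL1 there was such a peak in every list but for BCL2 in untreated 697, and the other 3 genes had none.

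The site seen in most lists in intron 2 lay about 14.1 kb into the gene, with a peak in every list but untreated 697. Its score percentile was 60.6 in treated JM1 (width 1382 bp), 52.0 in treated Nalm6 (920 bp), 18.2 in untreated JM1 (842 bp) and 29.9 in untreated REH (957 bp). These 4 peaks shared 642 bp. Over its whole length the peak held 7 Ikaros cores in treated JM1 and 3 each in treated Nalm6, untreated JM1 and untreated REH.

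The other BCL2L1 sites in at least 3 lists lay deeper in the gene and carried the name of the antisense transcript. The file name AL117381.1 and its transcript belong to BCL2L1-AS1 in GENCODE, an antisense noncoding gene on the plus strand (31686216 to 31716825). A site about 28.1 kb from the TSS had a peak at the 86.2nd percentile in treated JM1 (31694012 to 31695463), the highest of the gene's distal peaks in that list. Within it lay peaks of treated Nalm6 (31694043 to 31694290, percentile 18.9) and untreated JM1 (31694308 to 31694589, percentile 1.91), which did not overlap each other. A site at 38.3 kb was ranked at 18.8 in treated JM1, 18.2 in untreated JM1 and 52.4 in untreated REH. A site at 46.4 kb was ranked at 51.1 in treated JM1, 7.9 in untreated JM1 and 82.7 in untreated REH, where it was the highest distal peak of the gene. At the last exon, exon 3, wide peaks of treated JM1 (3489 bp, percentile 56.1) and untreated REH (3840 bp, percentile 68.0) stood beside narrow ones of treated Nalm6 (388 bp, percentile 34.8) and untreated 697 (385 bp, percentile 37.7). The Nalm6 and 697 peaks at this exon did not overlap each other, and untreated JM1 had none there. The other 3 sites of BCL2L1 were found in untreated REH alone.

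**Figure D2:**
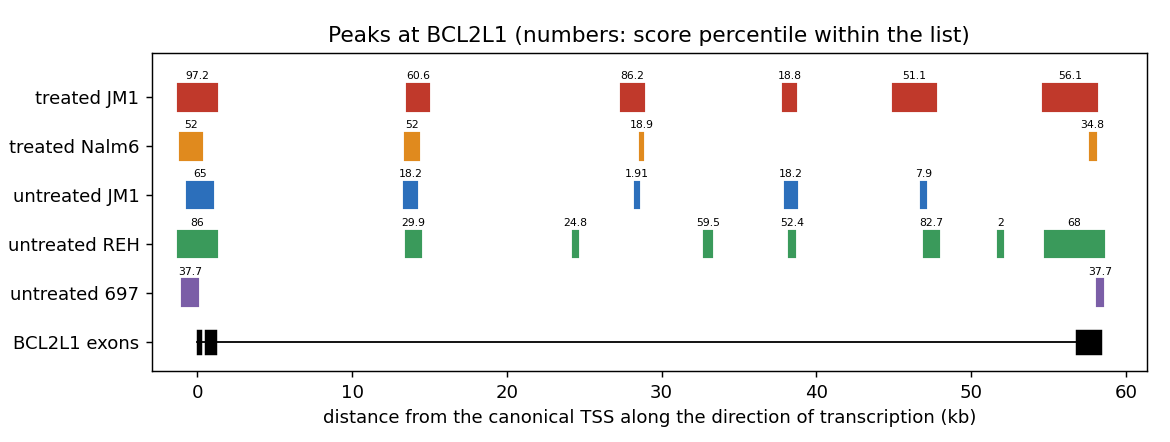
Peaks at BCL2L1 as bars along the distance from the canonical TSS in the direction of transcription (kb), 1 row per list, with the exons of the canonical transcript below and the score percentile within the list above each bar. Every list has a bar at the promoter, 4 lists have one at about 14.1 kb, and untreated REH has the most bars, 8 with the promoter.

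BCL2, whose protein gave the family its name, lies on the minus strand of chromosome 18 (63123346 to 63320128) and has its canonical TSS at 63319769. Its promoter peak spanned 63318195 to 63320856 in treated JM1 (score 33), 63318285 to 63320831 in treated Nalm6 (60), 63318138 to 63320048 in untreated JM1 (22) and 63317909 to 63321290 in untreated REH (144). These 4 peaks ran as 1 piece from before the canonical TSS into the coding exon 2, and each held all of the RefSeq window printed above. Untreated 697 had a peak on either side instead, at 63318186 to 63318560 in exon 2 (score 50) and at 63319865 to 63321050 upstream of the canonical TSS (56), with 1304 bp between them and 155 bases of the RefSeq window covered. The canonical TSS lay in that gap. In each of the 4 undivided peaks the canonical TSS was closer to the upstream edge, by 1087 against 1574 bp in treated JM1, 1062 against 1484 bp in treated Nalm6, 279 against 1631 bp in untreated JM1 and 1521 against 1860 bp in untreated REH.

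Untreated REH had the most peaks inside BCL2. Away from every TSS of BCL2 there were 5 peaks in treated JM1, 2 in treated Nalm6 and 1 in untreated JM1. Untreated REH had 9 and untreated 697 had 0, and all these peaks lay in intron 2. The REH peak at 63207121 to 63207722 covered the start of an antisense noncoding gene. Among the 1270 other protein-coding genes of 148 to 262 kb, near the 197 kb of BCL2, the median was 2 in treated JM1 (quartiles 1 and 7), 1 in treated Nalm6 (0 and 4), 0 in untreated JM1 (0 and 2), 2 in untreated REH (0 and 6) and 0 in untreated 697 (0 and 1). The REH count was above the upper quartile and the other 4 counts were within the quartiles. Of the 15 sites of BCL2, 11 were found in 1 list alone, 7 of them in untreated REH and 4 in treated JM1. The distal peak with the highest score was at the 64.7th percentile in treated JM1 (63165406 to 63166364), the 13.4th in treated Nalm6 (63144712 to 63145346, tied with 63155413 to 63155868), the 49.8th in untreated JM1 (63154443 to 63155868) and the 76.3rd in untreated REH (63144711 to 63146461). The untreated JM1 peak belonged to the distal site found in the most lists, about 164 kb from the canonical TSS, which was missing from untreated 697 only. At that site the treated and untreated JM1 peaks shared 54 bp.

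A narrow REH peak about 181 kb into BCL2 had a score of 112, at the 99.1st percentile of its list, with a width of 684 bp at the 30.0th percentile of widths. It covered the TSS, at 63138411, of a BCL2 transcript with no defined coding sequence and so counts as near a TSS, although it lies in intron 2 of the canonical transcript. Treated JM1 had a peak there at the 11.9th percentile (656 bp), and the other 3 lists had none. The 300 bases at the centre of the REH peak are printed on the strand of the gene, because this was the highest-scored peak of the family away from a main promoter.
BCL2 intron 2, chr18:63138258-63138557: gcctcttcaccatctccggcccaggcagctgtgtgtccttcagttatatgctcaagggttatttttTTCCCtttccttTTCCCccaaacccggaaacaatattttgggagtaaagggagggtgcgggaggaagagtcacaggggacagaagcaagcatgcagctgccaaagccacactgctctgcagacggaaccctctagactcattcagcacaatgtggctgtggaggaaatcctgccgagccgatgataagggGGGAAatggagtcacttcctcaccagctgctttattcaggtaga
It held 3 cores of GGGAA or TTCCC, in capitals, and 1 CCGGAA, and its GC content was 52.0%. The treated JM1 peak covered 257 of these bases.

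**Figure D3:**
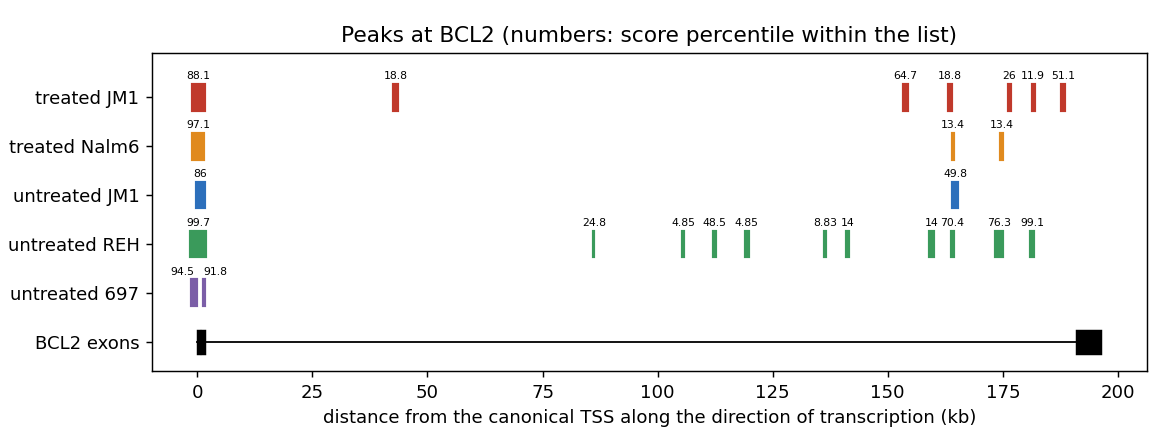
Peaks at BCL2 as bars along the distance from the canonical TSS in the direction of transcription (kb), 1 row per list, with the exons of the canonical transcript below and the score percentile within the list beside each bar. Untreated REH has 10 bars beyond the promoter, the farthest with percentile 99.1, and untreated 697 has none there.

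MCL1, which encodes a short-lived protein of the family, lies on the minus strand of chromosome 1 (150560895 to 150579738), with its canonical TSS at 150579610. Its promoter peak had a score of 93 in treated JM1 (1303 bp), 43 in treated Nalm6 (906 bp), 22 in untreated JM1 (989 bp), 70 in untreated REH (2737 bp) and 35 in untreated 697 (565 bp). Their percentiles were 99.0 in treated JM1, 90.2 in treated Nalm6, 86.0 in untreated JM1, 95.7 in untreated REH and 77.1 in untreated 697. The 697 peak lay within exon 1 and did not reach the canonical TSS, whereas the REH peak ran 1994 bp upstream of it. The 477 bp shared by all 5 peaks (150579064 to 150579540) held 2 Ikaros cores, both downstream of the canonical TSS, by 484 and 524 bp. They are printed in the same way as those of BCL2L1, because each lay in the peak of every list.
MCL1 motif 1 at chr1:150579074-150579098: gagttggtcgGGGAAtctggtaata
MCL1 motif 2 at chr1:150579114-150579138: ggagcctctcGGGAAgcggccggct
At the far end of MCL1 every list had a peak that carried another name or none. It was 14591 bp wide in treated JM1, 9653 bp in treated Nalm6, 1504 bp in untreated JM1, 15213 bp in untreated REH and 1533 bp in untreated 697, and it lay over the neighbouring antisense gene ADAMTSL4-AS1 and, other than in untreated JM1, over ADAMTSL4. These peaks met MCL1 in transcripts that run beyond the canonical one, and reads of the overlapping genes cannot be divided. They covered the start of ADAMTSL4-AS1 in every list, and that of ADAMTSL4 in treated JM1 and untreated REH. The authors classed them as promoter peaks in treated Nalm6, untreated JM1 and untreated 697. They are thus distal to the starts of MCL1 only. Their percentiles were 92.6 in treated JM1, 62.0 in treated Nalm6, 93.0 in untreated JM1, 87.3 in untreated REH and 30.2 in untreated 697. In each list this was the highest among the peaks away from the MCL1 starts. Upstream of MCL1, treated JM1 had a peak at 150584363 to 150586054 (percentile 56.1) and untreated REH had another at 150587899 to 150588211 (percentile 44.2), each in 1 list alone.

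BCL2L2 encodes Bcl-w and lies on the plus strand of chromosome 14 (23298790 to 23311751). Its highest-scored promoter peak in every list, by width after a tie in untreated JM1, stood over starts of PPP1R3E, a neighbour read in the opposite direction, where a longer BCL2L2 transcript also begins. This shared peak had a percentile of 97.7 in treated JM1, 88.7 in treated Nalm6, 29.8 in untreated JM1, 96.8 in untreated REH and 44.9 in untreated 697, and it carried the name PPP1R3E throughout. The peak over the canonical TSS at 23306833 had a percentile of 96.4 in treated JM1 (931 bp), 74.0 in treated Nalm6 (2234 bp), 29.8 in untreated JM1 (1158 bp) and 77.8 in untreated REH (3281 bp), and untreated 697 had none. In untreated JM1 this peak carried the name of the read-through gene BCL2L2-PABPN1, which starts at the same base, so reads of the 2 genes cannot be divided there. Treated JM1 also had a peak over exon 4 at the 11.9th percentile, 896 bp from an internal TSS. The Nalm6 peak ended in that exon and the REH peak ran farther into it. BCL2L2 had 0 distal peaks in any list.

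BCL2L10 encodes Bcl-B, a less studied member of the family, in a gene of 3.51 kb on the minus strand of chromosome 15 (52109263 to 52112775). Its 1 site was over exon 1 in all 5 lists, with a score of 31 in treated JM1 (1289 bp), 74 in treated Nalm6 (1656 bp), 16 in untreated JM1 (394 bp), 18 in untreated REH (1995 bp) and 70 in untreated 697 (850 bp). Among the highest promoter peaks of all genes it ranked at the 39.7th percentile in treated JM1, the 96.1st in treated Nalm6, the 31.9th in untreated JM1, the 4.43rd in untreated REH and the 95.8th in untreated 697. The Nalm6 and 697 lists, made with the affinity-purified antibody, had the highest ranks and the 3 lists of the Bethyl antibody the lower ones. For BCL2L1 the order was the other way, with 83.2, 38.8 and 39.7 in the treated JM1, untreated JM1 and untreated REH lists of the Bethyl antibody against 12.9 and 18.9 in treated Nalm6 and untreated 697. MCL1 was ordered as BCL2L1 was, at 93.5 in treated JM1, 68.2 in untreated JM1 and 77.1 in untreated REH. In treated Nalm6 it was at 61.2 and in untreated 697 at 61.1. BCL2 and BCL2L2 did not divide by antibody. The share of all genes that divide in this way was not taken, so these orders cannot be read as particular to these genes. Antibody and line cannot be told apart in these orders. The untreated JM1 peak at BCL2L10 lay wholly inside exon 1 and set the 394 bp shared by the 5 lists (52112322 to 52112715). It held 2 Ikaros cores, 145 and 264 bp downstream of the canonical TSS, which are printed because each lay in all 5 peaks.
BCL2L10 motif 1 at chr15:52112499-52112523: cggctaccccGGGAAccgcttcgag
BCL2L10 motif 2 at chr15:52112618-52112642: tactgcgcccGGGAAcccggcaccc

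**Figure D4:**
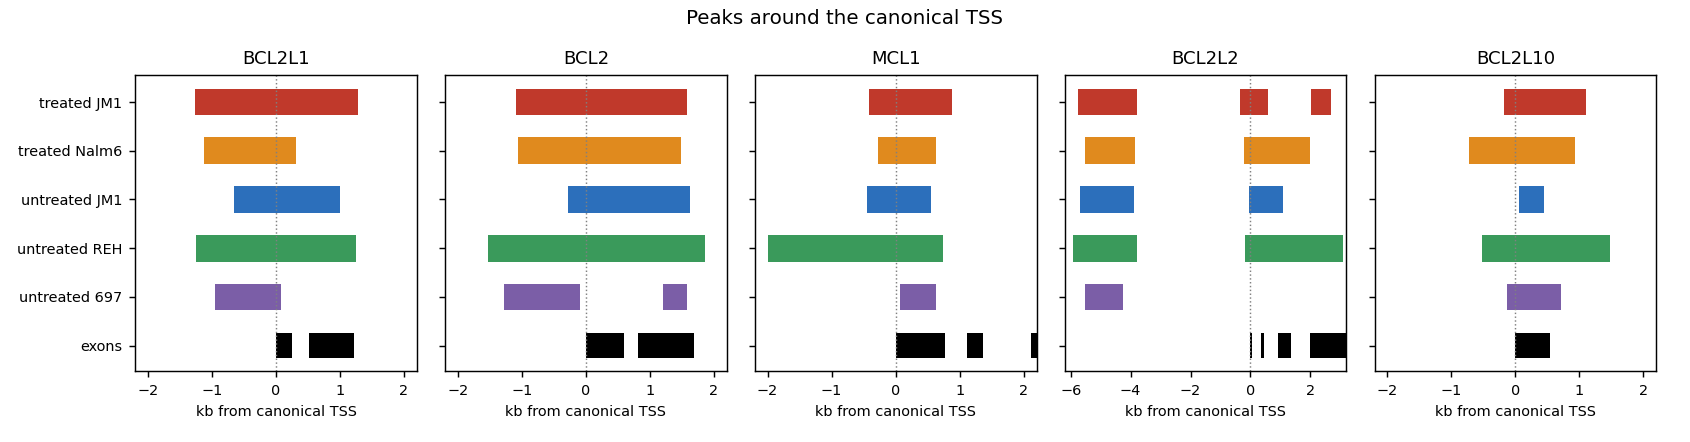
Peaks within a few kb of the canonical TSS of the 5 genes with a promoter peak, as bars along the distance from that TSS in the direction of transcription (kb), 1 row per list, with exons in black. The 697 row lacks a bar at the BCL2L2 start, shows a pair of bars with 1304 bp between them at BCL2, and has the narrowest bar at BCL2L1, of 1036 bp.

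BCL2A1 encodes BFL-1, also called A1, a member found mainly in blood cells and induced there by NF-kB. It had no peak within 1000 bp of a TSS and none over its body (chromosome 15, 79960892 to 79971196) in any list. The 1 peak that carried its name was in treated JM1, at 79976399 to 79977713, 5203 bp upstream of the nearest TSS, with a score of 13 at the 18.8th percentile. No RefSeq promoter base of BCL2A1 printed above was in a peak. Its window had the lowest GC content of the 4 printed, 41.0%.

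Treated and untreated JM1 were the only pair of lists from the same line with and without CX-4945. At the anti-apoptotic genes, 12 of 21 treated JM1 peaks overlapped an untreated peak and 12 of 13 untreated peaks overlapped a treated one. Over the whole lists 29.0% of treated and 84.1% of untreated peaks did so. All 6 untreated peaks near a TSS and 6 of 8 treated ones were shared. The untreated peak without a partner was a 363 bp peak of score 10 near the far end of MCL1. The 9 treated peaks without a partner lay at BCL2 (5), at BCL2L1 (1), at MCL1 (1), at BCL2L2 (1) and at BCL2A1 (1). No gene of the 6 had a promoter peak in the treated list alone or the untreated list alone, whereas 23.0% of all protein-coding genes had one after treatment only and 0.56% without treatment only.

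In the 12 overlapping pairs of JM1 peaks the treated peak was the wider in 10, against 90.1% of all overlapping pairs in the genome. It had the higher score percentile in 10, against 75.5% of all pairs, so both shares were near the background. At the BCL2L1 promoter the treated peak was 1.54 times as wide, held the whole untreated peak and reached 606 bp farther upstream and 284 bp farther downstream. Its percentile was 97.2 in treated and 65.0 in untreated JM1. The pair at the canonical BCL2L2 start was ranked at 96.4 in treated and 29.8 in untreated JM1, although the treated peak was 0.804 times as wide. At the BCL2 promoter the percentiles were 88.1 in treated and 86.0 in untreated JM1, with the treated peak 1.39 times as wide. At BCL2L10 the treated peak was 3.27 times as wide (percentile 86.2 in treated and 58.2 in untreated JM1). The pair whose ranks went the other way at a distal site was that of BCL2 at 164 kb, at 18.8 in treated and 49.8 in untreated JM1. The wide peak at the far end of MCL1 also ranked slightly lower, at 92.6 in treated and 93.0 in untreated JM1. The treated list was also the longer, with 88692 against 37448 peaks, and its peaks were wider, with a median of 1185 against 874 bp. With the treated list limited to its 37448 top-scored peaks, 9 of the 13 untreated peaks overlapped a treated one. The share over all untreated peaks was not taken under this limit. The part of list length in the widths and percentiles was not tested.

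Between lines, 11 of 25 untreated REH peaks overlapped an untreated JM1 peak (30.4% over the whole list) and 12 of 13 untreated JM1 peaks overlapped a REH peak (85.2%). The JM1 peak without a REH partner was that of score 10 at 28.1 kb in BCL2L1. In treated Nalm6, 6 of 12 peaks overlapped an untreated 697 peak (21.7%), and 7 of 8 untreated 697 peaks overlapped a Nalm6 peak (88.3%). Against untreated REH, 14 of 21 treated JM1 peaks were overlapped (65.7%) and 13 of 25 REH peaks overlapped a treated JM1 peak (68.0%). Of the treated JM1 peaks, 11 of 21 overlapped a treated Nalm6 peak (50.7%), and 11 of 12 treated Nalm6 peaks overlapped a treated JM1 peak (74.2%). Merged over the lists the 79 peaks made 32 sites, of which 7 were near a TSS and 25 were distal. Of the 7 sites near a TSS, 5 were in all lists, against 34.1% of 25175 sites near a protein-coding TSS when the peaks of all lists were merged in the same way. Of the 25 distal sites, 17 were in 1 list alone, against 57.1% of 97955 sites away from every protein-coding TSS. The rules of this comparison differ, since the 25 sites are distal to the starts of their own gene only. The MCL1 site in all 5 lists covers the start of ADAMTSL4, a protein-coding gene. Untreated REH held 11 of these 17 and treated JM1 held 6, and these were the longest lists.

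The Ikaros core was present in most peaks of the 6 genes, as it was in most peaks of each list. GGGAA on either strand stood in the central 300 bases of 11 of 21 peaks in treated JM1, 10 of 12 in treated Nalm6, 9 of 13 in untreated JM1, 16 of 25 in untreated REH and 7 of 8 in untreated 697. Over all peaks it was found in 64.0% in treated JM1, 64.6% in treated Nalm6, 65.3% in untreated JM1, 64.2% in untreated REH and 59.7% in untreated 697. The share at the 6 genes was thus below that of the list in treated JM1, near it in untreated JM1 and untreated REH, and above it in treated Nalm6 and untreated 697. The longer TGGGAA stood in 3 of 21 peaks in treated JM1 (27.5% of all peaks), 1 of 12 in treated Nalm6 (26.3%), 3 of 13 in untreated JM1 (25.5%), 7 of 25 in untreated REH (27.5%) and 0 of 8 in untreated 697 (17.8%). For this longer form the share at the 6 genes was near that of the list in untreated JM1 and untreated REH. It was below that of the list in treated JM1, treated Nalm6 and untreated 697. The ETS core CCGGAA stood in 1 of 21 peaks in treated JM1 (6.8% of all peaks), 0 of 12 in treated Nalm6 (8.36%), 2 of 13 in untreated JM1 (9.7%), 2 of 25 in untreated REH (7.33%) and 0 of 8 in untreated 697 (12.8%). Many of these peaks lie over the same sequence in several lists, so they are not independent. In a peak narrower than 300 bp the central 300 bases ran past its edges. The 248 bp peak of treated Nalm6 in BCL2L1 (31694043 to 31694290) was counted for a GGGAA core that lay outside it.

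The genes most like BCL2L1 in their 5 percentiles were BCKDHA, DOK3, DOCK11, SYNE1 and FBL. Likeness was the Euclidean distance between the percentiles of the highest promoter peak over 5 lists, among 8354 genes with such a peak in all of them. The distance was 9.12 for BCKDHA, which encodes a subunit of the branched-chain ketoacid dehydrogenase, 10.5 for DOK3, an adaptor protein, 12.2 for DOCK11, an exchange factor for CDC42, 12.4 for SYNE1, a protein of the nuclear envelope, and 13.7 for FBL, the nucleolar methyltransferase fibrillarin. The percentiles of BCKDHA were 95.2 in treated JM1, 52.0 in treated Nalm6, 58.2 in untreated JM1, 81.6 in untreated REH and 41.3 in untreated 697.

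Most other genes of the mitochondrial pathway carried promoter peaks too. Of 26 such genes, 24 had one in treated JM1 (81.3% of protein-coding genes), 24 in treated Nalm6 (74.4%), 21 in untreated JM1 (58.8%), 24 in untreated REH (81.8%) and 20 in untreated 697 (49.5%). The effectors BAX, BAK1 and BOK, which open the outer membrane, had one in every list. Of the 8 BH3-only genes, whose proteins the anti-apoptotic members bind, all had one in every list but for BID in untreated JM1. Of the other BCL2-like genes, BCL2L15 had none in any list, BCL2L14 had one in treated Nalm6 alone, and BCL2L12 had none in untreated JM1 and untreated 697. Among 11 downstream genes and regulators, DIABLO had none in treated Nalm6, USP9X none in untreated JM1, and CYCS, XIAP and BECN1 none in untreated 697. The highest percentiles of the 26 were those of FBXW7, part of a ubiquitin ligase for MCL1, in treated JM1 (98.8), followed by BBC3 (98.4) and BECN1 (98.1). In treated Nalm6 they were those of BBC3, which encodes the BH3-only protein PUMA (99.2), MARCHF5 (97.5) and BIK (93.0). In untreated JM1 they were BAD (99.7), PMAIP1 (96.9) and XIAP (96.3), in untreated REH PMAIP1 (99.0), BBC3 (98.7) and BAD (97.9), and in untreated 697 BBC3 (99.0), BAD (93.2) and FBXW7 (87.5). BBC3 had percentiles of 98.4 in treated JM1, 99.2 in treated Nalm6, 93.0 in untreated JM1, 98.7 in untreated REH and 99.0 in untreated 697, so that it was at or above the 93.0th in every list.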

How the data were processed

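The labels list 11 libraries, of which 6 are Ikaros and 5 input libraries; inputs were not analysed here. Lists were matched to groups by line and treatment. Nalm6 had 2 Ikaros libraries and 1 list (made from 1 or both: not given in the sources used here). Trimming by the authors used BBDuk, per the labels' protocols. The submitters' processing notes name GRCh38, Bowtie2 2.3.4.3, MACS2 2.1.1 and HOMER 4.10. What defines the score, how peaks were called and against which control were likewise not given in the sources used here. A deposited peak score is a whole number of at least 10, per the file headers and values. Depth was not analysed here.

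Deposited positions fitted the GRCh38 sequence, with 0 peaks off it. Genes and TSSs were from GENCODE release 44, with 19995 protein-coding genes. Peaks sharing 1 bp or more counted as overlapping. Genes of like length, a comparison chosen after the data had been seen, had 0.75 times to 1 / 0.75 the length. The promoter and percentile rules were tested on simulated data. Python 3.11.15, pandas 2.3.3, numpy 2.4.6, pysam 0.24.0 and matplotlib 3.10.9 were used.

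Named were the 6 genes with their highest promoter peak, sites in all lists, BCL2L1 sites in at least 3 lists, the highest distal peak per gene and list, the 5 genes most like BCL2L1, and other apoptosis genes without a peak or among the 3 highest. Other peaks and the printed motif windows were picked after their values were seen. Members and lists were chosen with earlier results of these data known. A marker and some sequences are not reported here.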

Additional observations from a re-analysis of the deposited data

How the results depend on the processing

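No paired analysis was possible because each condition had 1 peak list and no test was made. Of the values that describe the 6 genes as a group, 36 moved little and 32 moved under another setting. The rule for a move was looser for counts than for percentiles. Untreated 697 could not move when lists were limited to its own length. The tally is thus not a measure of robustness. By the authors' promoter class and gene name, 3 genes had a promoter peak in untreated JM1 (34.2% of protein-coding genes), 3 in untreated REH (44.9%) and 3 in untreated 697 (30.3%). Peaks that carried the gene's own name numbered 10 in treated JM1, 6 in treated Nalm6, 5 in untreated JM1, 14 in untreated REH and 5 in untreated 697. With the 19652 top-scored peaks of each list, 8 of 21 peaks were left in treated JM1 and 5 of 12 in treated Nalm6. In untreated JM1 6 of 13 were left and in untreated REH 8 of 25. This cut kept 19652 of 88692 peaks in treated JM1, of 70894 in treated Nalm6, of 37448 in untreated JM1 and of 83563 in untreated REH. BCL2L1 then had no promoter peak in treated Nalm6, BCL2L2 none in untreated JM1 and BCL2L10 none in untreated REH. The share of all protein-coding genes with one was then 54.5% in treated Nalm6, 45.7% in untreated JM1 and 62.3% in untreated REH. Ranked among promoter-class peaks, the median percentile was 87.1 in treated JM1, 73.5 in treated Nalm6, 48.1 in untreated JM1, 82.5 in untreated REH and 66.3 in untreated 697. With the peak nearest to the canonical TSS it was 96.4 in treated JM1 and 86.0 in untreated REH. With ties counted as not below it was 89.8 in treated Nalm6, 61.9 in untreated JM1 and 76.3 in untreated 697. With a reciprocal overlap of 50%, 6 untreated JM1 peaks overlapped a treated one. When each list had to cover 50% of the widest peak of a site, 1 site was in all 5 lists. The shares over all peaks and all sites were not taken under these rules, so these counts cannot be read as particular to the 6 genes. The Ikaros core stood somewhere in 90.5% of whole peaks in treated JM1 (92.3% of all peaks), 100% in untreated JM1 (90.2%) and 84.0% in untreated REH (91.7%). TGGGAA stood in the centre of 14.3% in treated JM1, 8.33% in treated Nalm6, 23.1% in untreated JM1, 28.0% in untreated REH and 0.0% in untreated 697. The last form turned round the comparison with all peaks in treated Nalm6 and untreated 697, where the share was above that of the list with GGGAA and below it with TGGGAA. In untreated JM1 the share was near that of the list with either form. The cause of these shifts was not tested. The length of each list limits which weak peaks could be seen.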
